A study of Homo sapiens with 2 samples.

Results

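The 12q14 region on chromosome 12 held listed RNA immunoprecipitation (RIP) peaks of USP39 beside those assigned to HMGA2 itself: 24 of the 368 listed peaks were assigned to MSRB3, LOC100507065, LOC100129940 or LOC101927810, and 42 to HMGA2. The members were selected on the presence of listed peaks under these 4 gene names, so their peak numbers are a description and no test was made of them. RIP-seq was done in A2780, an ovarian cancer cell line, expressing Flag-tagged USP39. One library came from RNA pulled down with a Flag antibody and 1 from input RNA of the same cells, with no replicate of either. The list gives a position, a gene and a transcript region for each peak. It carries no read count, enrichment or strand, and the depth of the libraries is unknown here.

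USP39 is a spliceosomal protein needed for pre-mRNA splicing. HMGA2 bends and opens DNA by gripping the minor groove of AT-rich stretches through its AT hooks, and its gene is dominated by a single very long intron. MSRB3 encodes a methionine sulfoxide reductase, which repairs oxidised methionine in proteins. The other members are long non-coding RNA (lncRNA) genes. By gene ID, LOC100507065 is now named MSRB3-AS1 and LOC100129940 is named HMGA2-AS1, both transcribed from the minus strand, whereas MSRB3 and HMGA2 lie on the plus strand. LOC101927810 had no entry in the annotation used here.

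The annotated exon below is shown because it is the exon inside the single member peak listed as exonic, a LOC101927810 peak of 400 bp at chr12:66270601-66271000 (hg19). The exon belongs to HMGA2-AS1 on the minus strand, is 258 bp long and lies in intron 3 of HMGA2. Capitals mark the exon and lower case the 20 flanking intronic bases on each side, at chr12:66270635-66270932 (minus strand, hg19).
HMGA2-AS1 exon: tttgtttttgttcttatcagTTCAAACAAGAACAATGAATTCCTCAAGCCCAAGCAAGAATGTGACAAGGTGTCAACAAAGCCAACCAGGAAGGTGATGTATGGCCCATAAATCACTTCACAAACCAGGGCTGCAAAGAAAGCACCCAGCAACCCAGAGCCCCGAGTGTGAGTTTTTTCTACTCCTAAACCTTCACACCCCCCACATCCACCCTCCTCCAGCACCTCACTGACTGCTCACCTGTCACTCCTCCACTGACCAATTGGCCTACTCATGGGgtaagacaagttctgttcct

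The widest of the 368 listed peaks was a LOC100129940 peak of 5000 bp at chr12:66259201-66264200, ahead of the next widest at 4100 bp. It was listed as intronic, yet it held 1 annotated exon on each strand. A 151-bp exon of HMGA2-AS1 (chr12:66260584-66260734, minus strand) and a 319-bp alternative exon of HMGA2 (chr12:66261269-66261587, plus strand) lay 534 bp apart within it. Their splice-site windows are shown because the peak overlapped exons of both genes, with 20 exonic bases in capitals and 20 intronic bases in lower case. The HMGA2-AS1 windows span chr12:66260715-66260754 and chr12:66260564-66260603 (minus strand), and the HMGA2 windows span chr12:66261249-66261288 and chr12:66261568-66261607 (plus strand), all hg19.
HMGA2-AS1 3' splice site: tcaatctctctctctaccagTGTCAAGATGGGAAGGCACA
HMGA2-AS1 5' splice site: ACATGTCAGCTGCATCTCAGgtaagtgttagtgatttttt
HMGA2 3' splice site: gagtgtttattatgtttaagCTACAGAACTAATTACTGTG
HMGA2 5' splice site: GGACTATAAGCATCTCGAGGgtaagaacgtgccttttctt

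The members differed in how closely their peaks lay. MSRB3 peaks were spread over 176600 bp, LOC100507065 peaks were packed into 6600 bp, and the peaks of LOC100129940 and LOC101927810 followed each other inside HMGA2. The last MSRB3 peak and the first LOC100507065 peak were 83800 bp apart, about as far as the widest gap within MSRB3, 85200 bp. No listed peak lay in the 272800 bp between the last LOC100507065 peak and the first HMGA2 peak. Outside the region, the nearest listed peak upstream of the first MSRB3 peak was in TBK1, 839800 bp away, and the nearest one downstream of the last HMGA2 peak was in ZFC3H1, 5684600 bp away.

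**Figure D1:**
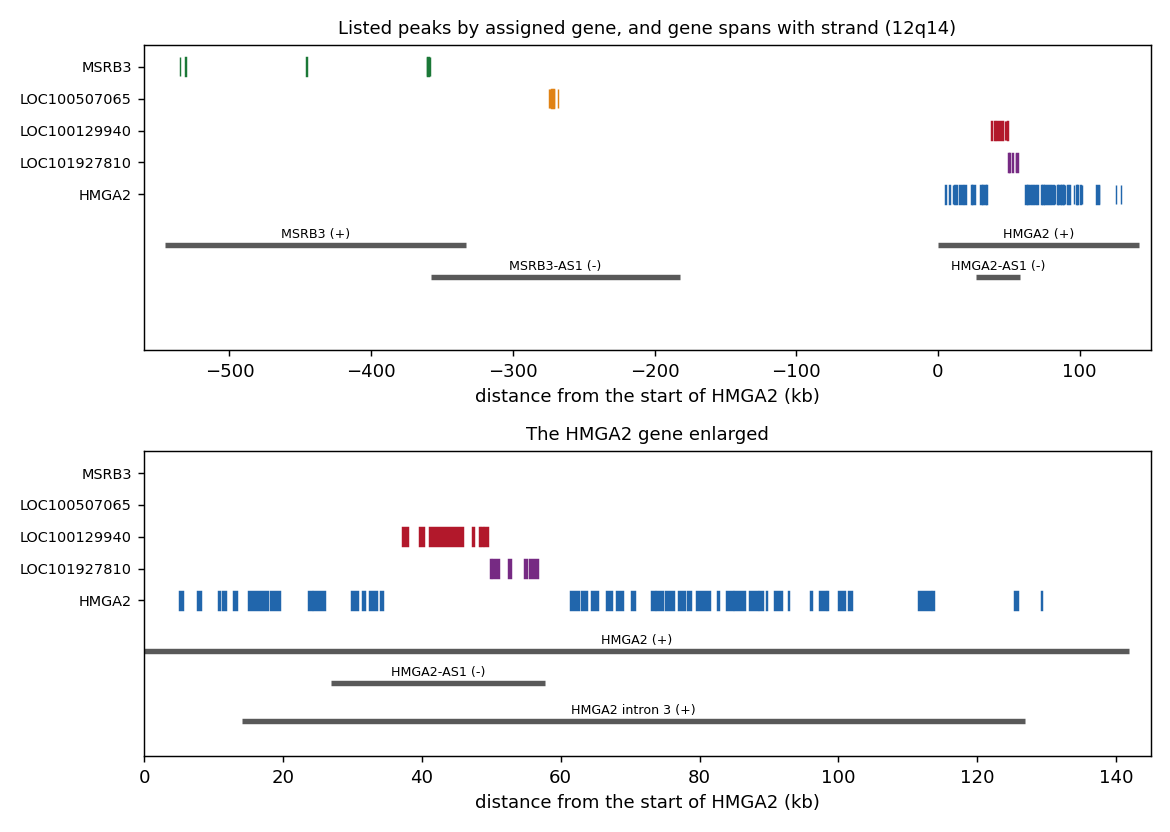
Listed peaks (coloured blocks, 1 row for each assigned gene) and annotated gene spans with strand (grey bars), against distance from the start of HMGA2 in kb. The LOC100507065 peaks sit in 1 tight cluster, and the 12 peaks of LOC100129940 and LOC101927810 fill the space between the 13 HMGA2 peaks before them and the 29 after them.

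MSRB3 had 6 peaks, 3 in introns and 3 in the 3' UTR. In the canonical transcript, 2 peaks lay in intron 1 and 1 in intron 5, and introns 2, 3, 4 and 6 had none. The 3' UTR is 3585 bp long and 39.1% of its bases were covered by peaks, against 0.653% of the bases of the 6 introns. In number this was 0.837 peaks per kb in the 3' UTR and 0.0163 peaks per kb in introns. The first 3' UTR peak began 298 bp after the stop codon, and the last ended 687 bp before the end of the transcript. The widest MSRB3 peak, 1000 bp at chr12:65857801-65858800, was 1 of the 3 in the 3' UTR. MSRB3 and HMGA2 thus differed in the place of their peaks. Every one of the 42 HMGA2 peaks was listed as intronic, although 5 of them overlapped an annotated exon on the plus strand. In 1 of these 5 the exon belonged to another gene, AC090673.1, and 8 bp of it were overlapped. Over all members 20 of 24 peaks (83.3%) were listed as intronic, against 161 of the 368 listed peaks (43.8%).

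LOC100507065 also had 6 peaks, all listed as intronic. The stretch from the first to the last of them took up 3.76% of the 175553-bp span of MSRB3-AS1, and the peaks themselves covered 1.37% of it. MSRB3-AS1 overlaps MSRB3 by 24611 bp, but the peaks were not in the overlap: the first began 58590 bp past the annotated end of MSRB3. They therefore overlapped a minus-strand gene alone. The median width was 300 bp, and the gaps between neighbours ran from 200 to 2600 bp with a median of 400 bp. Over the whole gene the density was 0.0342 peaks per kb, close to the 0.0282 peaks per kb of MSRB3, whereas over the stretch from first to last peak it was 0.909 peaks per kb.

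The cluster coincided with repeated sequence. Each peak was cut into overlapping words of 31 bases, and the occurrences of every word were counted on both strands of hg19. Of the 6 LOC100507065 peaks, 5 lay inside a stretch of 6328 bp in which 92.2% of words occurred more than once, with a median of 1982 occurrences. In these 5 peaks the median word occurred 168, 5214, 2256, 2066 and 1618 times. The sixth peak, at chr12:65950201-65950400, began 680 bp past the stretch, and each of its words occurred once. Among the 42 HMGA2 peaks, 1 had a median occurrence of 100 or more, and among all 368 listed peaks 9 did (2.45%), so the LOC100507065 peaks made up 5 of those 9. Alignment gave the same 5 peaks: each matched other places in hg19 along 80% or more of its length, at an identity of 95% or higher. By alignment, however, 51 of all 368 listed peaks (13.9%) had such a match, so that the LOC100507065 peaks were 5 of 51. How reads that align to many places were treated is not given in the sources used here. The part of repeated sequence in these peaks was not tested.

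The sixth peak is shown because it is the LOC100507065 peak outside the repeated stretch. It is printed in lower case throughout, since none of its bases lie in a repeated word, and lies within an intron of MSRB3-AS1 (plus strand shown, hg19).
Sixth LOC100507065 peak: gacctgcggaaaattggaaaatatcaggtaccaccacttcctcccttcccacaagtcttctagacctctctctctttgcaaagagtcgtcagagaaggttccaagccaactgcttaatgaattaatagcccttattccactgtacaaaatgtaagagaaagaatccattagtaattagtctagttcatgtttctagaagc

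**Figure D2:**
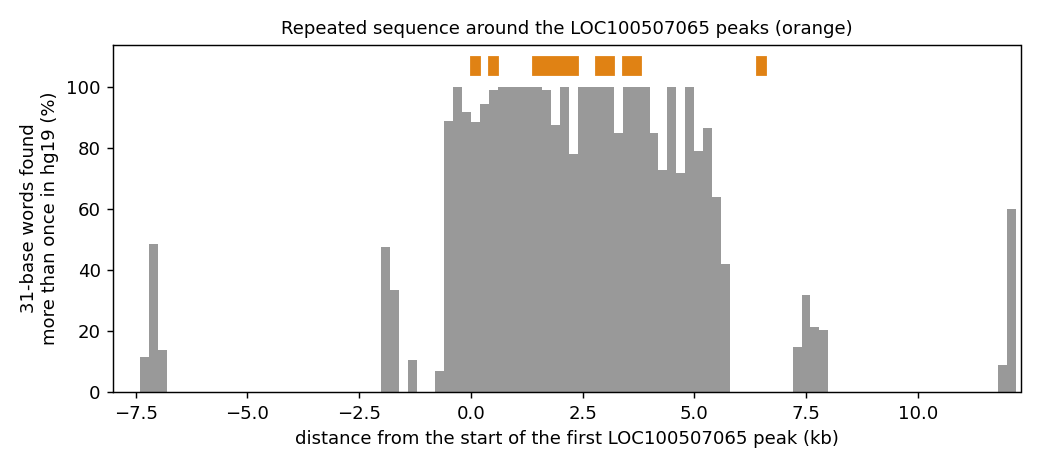
Percent of 31-base words found more than once in hg19, in bins of 200 bp (grey bars), against distance in kb from the start of the first LOC100507065 peak, with the 6 peaks as orange blocks. The first 5 peaks stand over a block of repeated sequence and the sixth stands beyond its end.

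LOC100129940 had 7 peaks, all listed as intronic and all within intron 3 of HMGA2. The median width was 600 bp, against 700 bp for HMGA2. The 7 peaks covered 8000 bp, which was 64.5% of the 12400 bp from the first to the last of them, and the 5000-bp peak made up most of it. Counting peaks by their assigned gene, the density was 0.227 peaks per kb over the span of HMGA2-AS1, against 0.296 peaks per kb over the span of HMGA2. Counting every listed peak that overlapped the span turned this order, with 0.519 peaks per kb for HMGA2-AS1 and 0.381 peaks per kb for HMGA2. With peaks up to 1000 bp apart merged, the values by assigned gene were 0.0973 per kb for HMGA2-AS1 and 0.106 per kb for HMGA2. Among the 11 listed genes with at least 5 assigned peaks in their annotated span, HMGA2 ranked 1 and LOC100129940 ranked 3 by density of assigned peaks, while LOC100507065 and MSRB3 ranked 6 and 7. SRRM2 ranked 2, with 0.251 peaks per kb. Genes without an annotated span here, such as LOC101927810, were not ranked. The 5 LOC101927810 peaks lay in the same HMGA2-AS1 span but were not counted in the density or rank of LOC100129940. Both values therefore depend on the gene name in the list.

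LOC101927810 had 5 peaks within 7000 bp, 4 listed as intronic and 1 as exonic. They began 200 bp after the last LOC100129940 peak, which is 1 bin of the grid on which all peaks of the chromosome lie. The median width was 400 bp and 48.6% of the stretch was covered. All 5 lay inside the span of 1 HMGA2-AS1 transcript (chr12:66267592-66275358, minus strand), so the current annotation places them in the same gene as the LOC100129940 peaks.

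**Figure D3:**
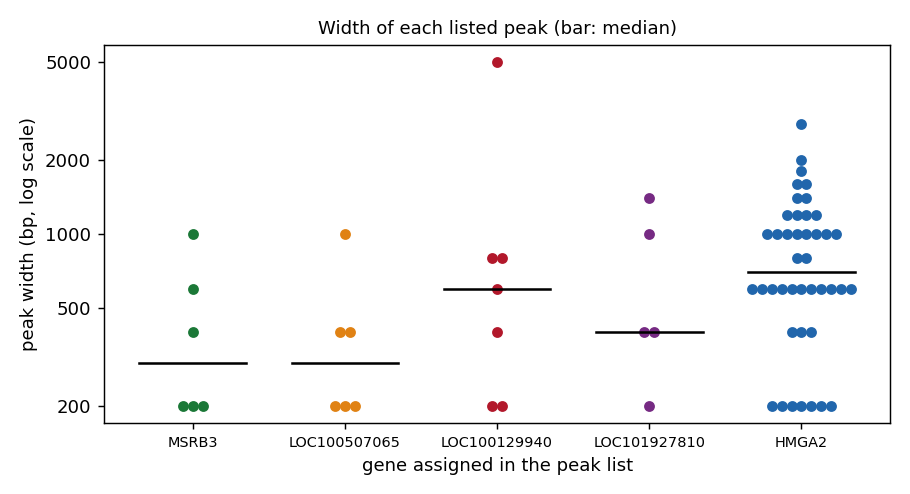
Width of each listed peak in bp on a log scale, by assigned gene, with 1 point for each peak and a bar at the median. The 5000-bp LOC100129940 peak stands above all others, and the medians run from 300 bp in MSRB3 and LOC100507065 to 700 bp in HMGA2.

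The assigned gene changed 3 times along HMGA2. Of 54 peaks that overlapped HMGA2, the first 13 were assigned to HMGA2, the next 7 to LOC100129940, the next 5 to LOC101927810 and the last 29 to HMGA2 again. The gaps at the 3 changes were 2800, 200 and 4600 bp. Between all neighbours in the gene the median gap was 600 bp and the widest was 11600 bp, 7 of the 53 gaps were wider than 2800 bp, and 2 were wider than 4600 bp. The density from first to last peak was 0.442 per kb in the first run of HMGA2 peaks, 0.565 per kb in LOC100129940, 0.714 per kb in LOC101927810 and 0.426 per kb in the last run of HMGA2 peaks. With neighbours 1 bin (200 bp) apart joined, these values came to 0.374, 0.403, 0.429 and 0.324 per kb. The span of HMGA2-AS1 was overlapped by 16 listed peaks, of which 7 were assigned to LOC100129940, 5 to LOC101927810 and 4 to HMGA2.

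Strand could be described for the genes under the peaks but not for the RNA. All 12 peaks of LOC100129940 and LOC101927810 overlapped genes on both strands, HMGA2 on the plus strand and HMGA2-AS1 on the minus strand. The 6 MSRB3 peaks overlapped plus-strand genes alone and the 6 LOC100507065 peaks minus-strand genes alone. Of the HMGA2 peaks, 36 overlapped plus-strand genes alone and 6 overlapped both strands. Because the list carries no strand, intronic HMGA2 RNA and antisense RNA cannot be told apart at those 12 peaks. The same holds for the 6 HMGA2 peaks that overlapped both strands.

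Intron 3 of HMGA2 was described in 2 pieces, under HMGA2-AS1 and outside it. The intron is 112813 bp long (chr12:66232350-66345162) and held 48 listed peaks. Under HMGA2-AS1 there were 16 peaks in 30828 bp, or 0.519 peaks per kb. The rest of the intron held 32 peaks in 81985 bp, or 0.390 peaks per kb. No test was made of this difference, since 12 of the 16 peaks under HMGA2-AS1 are members selected on having a listed peak and there is no replicate. Peaks covered 46.7% of the bases under HMGA2-AS1 and 36.8% of the rest. Without the 5000-bp peak the first value was 30.5%. In that value the bases of the peak stayed in the length and counted as uncovered, while the widest peak of the rest was kept. It therefore does not show which part was covered more apart from that peak. The part of the intron before HMGA2-AS1 had 50.1% of its bases covered by 4 peaks, and the part after it 34.4% by 28 peaks.

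**Figure D4:**
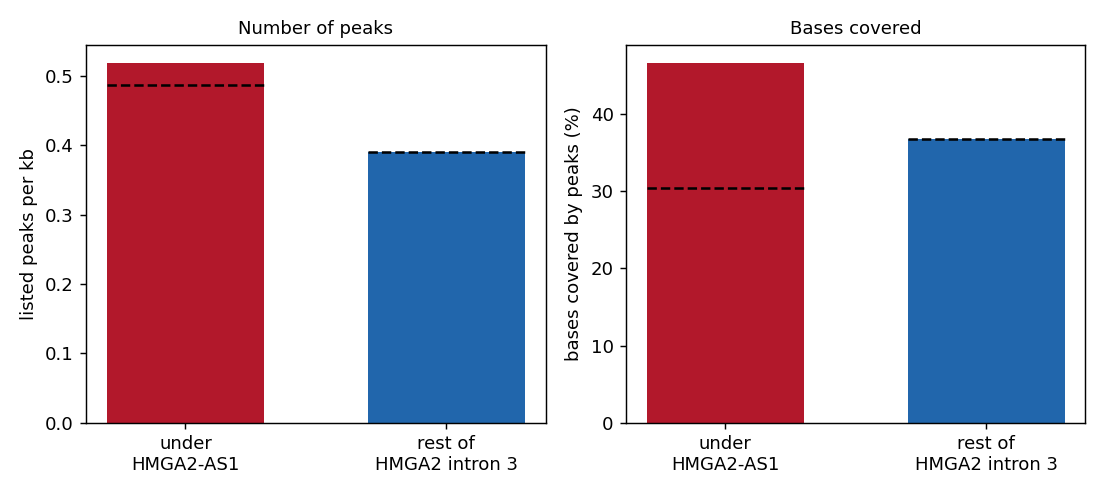
Listed peaks per kb (left) and percent of bases covered by peaks (right) under HMGA2-AS1 and in the rest of HMGA2 intron 3. Bars are values from the 1 peak list, with no error. Dashed lines give the value without the 5000-bp peak but with its bases kept in the length. Coverage under HMGA2-AS1 is then 30.5% in place of 46.7%.

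Some member peaks lay close to annotated splice sites of HMGA2-AS1. Within 100 bp of a splice site there were 3 of the 5 LOC101927810 peaks, 1 of the 7 LOC100129940 peaks, and none of the 12 peaks of MSRB3 and LOC100507065, against 2 of the 42 HMGA2 peaks. The exonic LOC101927810 peak held both ends of the exon printed above. The first LOC101927810 peak lay 32 bp from the 3' splice site of one HMGA2-AS1 exon, and the last lay 18 bp from the 5' splice site of another. Together this was 4 of the 24 member peaks (16.7%), against 129 of all 368 listed peaks (35.1%). Among peaks listed as intronic it was 3 of 20 members (15%) and 36 of 161 in the whole list (22.4%), a gap of few peaks that was not tested. LOC101927810, at 3 of 5, went the other way. With canonical transcripts alone, 1 member peak, none of the HMGA2 peaks and 109 of all listed peaks were within 100 bp. An exon was overlapped by 6 of the 24 member peaks, 3 of them the 3' UTR peaks of MSRB3, and by 7 of the 42 HMGA2 peaks. With canonical transcripts alone it was 4 of the 24 member peaks.

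The base composition of the members was close to that of HMGA2. The median GC content was 39.1% over the 24 member peaks, 39.5% over the 42 HMGA2 peaks and 41.4% over all 368 listed peaks. The lowest value among the members, 21.5%, belonged to the first LOC101927810 peak, at chr12:66268001-66268200 in an intron of HMGA2-AS1 (plus strand shown, hg19). It is printed for this composition, and each of its 31-base words occurred once in hg19.
First LOC101927810 peak: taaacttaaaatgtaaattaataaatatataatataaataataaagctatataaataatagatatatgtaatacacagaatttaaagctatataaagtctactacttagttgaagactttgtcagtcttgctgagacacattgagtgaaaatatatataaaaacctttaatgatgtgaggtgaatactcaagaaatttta

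Most neighbouring genes had no listed peak. From 65 to 67 Mb of chromosome 12, 14 protein-coding genes are annotated and 2 had a peak, MSRB3 and HMGA2. RASSF3, TBC1D30, WIF1, LEMD3, LLPH, TMBIM4, IRAK3, HELB and GRIP1 were among the 12 without one. Of 20 lncRNA genes in the window, 3 were overlapped by a peak: MSRB3-AS1, HMGA2-AS1 and an unnamed minus-strand gene inside HMGA2 (chr12:66328557-66342259), which held 2 peaks assigned to HMGA2. For a gene without a peak, absence of binding and low expression cannot be told apart without read counts. The whole list named 161 genes. The share of all annotated genes with a peak was not computed, so these counts do not set the region apart.

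The lists of related genes could be compared only in part, because many of their genes lie on chromosomes with no listed peak. Of the 4 methionine sulfoxide reductase genes, 2 lie on chromosomes with any listed peak: MSRB3 had its 6 peaks and MSRB1 had none. Of the HMGA family, HMGA2 alone lies on such a chromosome, so no comparison could be made. Of 8 genes tied to HMGA2 or to let-7, the microRNA family that represses HMGA2, 3 lie on such chromosomes: IGF2BP1 had 1 listed peak, and LIN28A and RPSAP52 had none. RPSAP52 is a minus-strand pseudogene that overlaps the start of HMGA2.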

How the data were processed

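RNA bound by Flag-USP39 and input RNA were sequenced from A2780 cells, with 1 library of each. Per the labels, the reads were aligned to hg19 with TopHat2 2.0.13. The authors deposited 1 list of annotated peaks for the RIP, which gives the start and end of each peak. How the input library entered the peak search is not given in the sources used here. The members and lists were chosen with earlier results of these data known.

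Peaks were taken as listed. Gene spans, exons and splice sites came from GENCODE release 44 mapped to GRCh37, and current gene names from the RefSeq table by gene ID. Density is peaks per kb of annotated span. A gene counted as overlapped from 1 bp. Copies were sought with minimap2 2.31 (matches along 80% or more of a peak, at an identity of 95% or higher), and occurrences of 31-base words were counted exactly, which was tested on simulated sequence. Sequences were read with pysam 0.24.0, and intervals for the alternatives were computed with scipy 1.17.1. Named genes were the 4 members, HMGA2, the protein-coding genes from 65 to 67 Mb and the fixed lists, and genes named outside them (TBK1, ZFC3H1 and SRRM2) were chosen after their values were seen. Some items are not reported here. No test was made, since each library was made once.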

Additional observations from a re-analysis of the deposited data

How the results depend on the processing

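No paired analysis was possible because neither the RIP nor the input has a replicate. An alternative counted as moved when it lay beyond the interval of the main value. The intervals come from this 1 list and treat its peaks as independent, so they measure no variation between libraries. For counts, which had no interval, the limit was a change of over 1.5 times. Of 53 alternative values, 13 moved by this rule. The number of the others says nothing about stability, since several could not move: the intervals of the member medians span all their values, and the widest peak lies outside the rest of intron 3. When peaks up to 1000 bp apart were merged, the 24 member peaks became 12 within genes and 11 across genes. The 7 of LOC100129940 became 3, the 6 of LOC100507065 became 2 and the 5 of LOC101927810 became 3 (also 3 at 200 bp). The density after this merging was 0.0114 peaks per kb for LOC100507065 and 0.106 peaks per kb for HMGA2. For LOC100129940 the density fell from 0.227 to 0.0973 peaks per kb. That fall was by over 1.5 times but within the interval (0.0913 to 0.468), so it is not among the 13. By overlap with its span LOC100129940 had 16 peaks. Over the stretch from first to last peak, density was 0.909 per kb for LOC100507065 and 0.565 per kb for LOC100129940, by construction of a shorter length. Without the 5000-bp peak, but with its bases kept in the length, 30.5% of bases under HMGA2-AS1 were covered. With canonical transcripts, 1 member peak lay within 100 bp of a splice site. The word counts that define high-copy peaks, and the alternatives by alignment and by percent of repeated words, were all chosen after seeing the data, and each gave 5 LOC100507065 peaks. The share of soft-masked bases was not run, since the genome sequence used here has no lower-case bases. Overlap with an annotated span, and density over it, could not be computed for LOC101927810.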

Other observations

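Peak numbers in the list follow position along chromosome 12. From the first MSRB3 peak to the last HMGA2 peak the numbers span 76 values, of which 66 are listed and 10 are absent. Of the absent numbers, 3 fall between the last LOC100507065 peak and the first HMGA2 peak, 1 in the gap before the first LOC100129940 peak, 1 between neighbouring LOC100129940 peaks, 1 between the last LOC101927810 peak and the next HMGA2 peak, and the other 4 between HMGA2 peaks. What the absent numbers stand for was not tested.

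For the HMGA2 sites tested by RIP-PCR, 5 primers from the supplementary primer table match chr12:66308604-66309437 (hg19). None of these 5 lies in a member peak, and 2 lie in an HMGA2 peak. The forward primer of the first site was not analysed here, so the extent of that site is not given.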
